A study of Homo sapiens with 4 samples.

Results

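Accessible chromatin around the potassium channel genes was described by ATAC-seq in the established human melanoma line A375. In this assay the transposase Tn5 cuts open DNA and attaches sequencing tags to it. The members were the 96 protein-coding genes whose symbol begins with KCN in RefSeq, out of 20033 nuclear protein-coding genes, and the deposited regions that overlapped the span of such a gene extended by 10 kb on both sides. This gave 771 regions of the 125986 listed, with at least 1 region for 94 of the 96 genes. KCNE5 and KCNRG had none. The cells had been cultured for 48 h with octanoate, the anion of a medium-chain fatty acid, at 1 mM, or with isopropanol as its vehicle. Each group had 2 libraries, 4 in all, and the labels do not say whether these came from separate cultures, so p-values may measure only technical spread. All libraries came from this 1 cell line, grown in DMEM with serum.

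Potassium channels are membrane pores that let potassium ions flow down their gradient, which holds the membrane potential negative and ends electrical signals. Voltage-gated channels open when the membrane depolarises, calcium- and sodium-activated channels open as those ions rise inside the cell, and inward rectifiers and two-pore channels set the resting potential. Beta and accessory subunits change how the pore proteins gate and how many reach the surface. Cells that do not fire, melanoma cells among them, use such channels for volume control, calcium entry and progress through the cell cycle.

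No region of a potassium channel gene passed the threshold in the authors' deposited table. The authors' adjustment covered 11185 regions, those whose mean over the 4 libraries was 63.8 normalized reads or more. These are called tested regions, and 43 of the 771 potassium channel regions were among them, spread over 31 genes. Of the 43, 0 passed an adjusted p of 0.05 (Benjamini-Hochberg, DESeq2), where 1.02% of all tested regions passed, and 0 had one under 0.1, against 2.98%. The lowest adjusted p among them in the authors' deposited table was 0.11, at KCNK9. At an unadjusted p under 0.05, 7 of the 43 regions were higher after octanoate (16.3%) and 0 were lower. Over all tested regions the shares in the authors' deposited table were 14.8% higher and 0.107% lower, so the potassium channel genes were close to the background.

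The table holds means over all libraries and no value for a single library, so levels are given as that mean and, for the regions in question, as the vehicle and octanoate levels that the mean and the fold change together imply. The depth of each library is not in the table. As a check of the cell type, 8 melanocytic markers were read within 1 kb of a listed start or, where none was listed, of either end of the gene. MITF (mean 168) and DCT (30.0) had a region at a listed start, SOX10, PMEL and S100B had one at an end of the gene, and MLANA, TYR and TYRP1 had none. Of 4 blood markers 2 had such a region (CD3E at 70.1 and SPI1 at 31.0, also read at either end), and of 4 epithelial markers 0 did.

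The deposited fold change is the log2 ratio of octanoate over vehicle, called log2 ratio here. Most regions of the genome lay above 0, with a median log2 ratio of 0.19 over all tested regions in the authors' deposited table. The 43 potassium channel regions had a median of 0.22, and 39 of them (90.7%) were above 0, against 85.7% of all nuclear tested regions. Over all 771 regions the median log2 ratio was 0.27 with quartiles of 0.015 and 0.58, and 75.9% were above 0. The same median was 0.23 over all 125985 nuclear regions, of which 72.1% were above 0. Most potassium channel regions were weak: their median signal was 11.3 normalized reads, against 12.2 over all nuclear regions, and their median width was 410 bp against 437 bp.

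**Figure D1:**
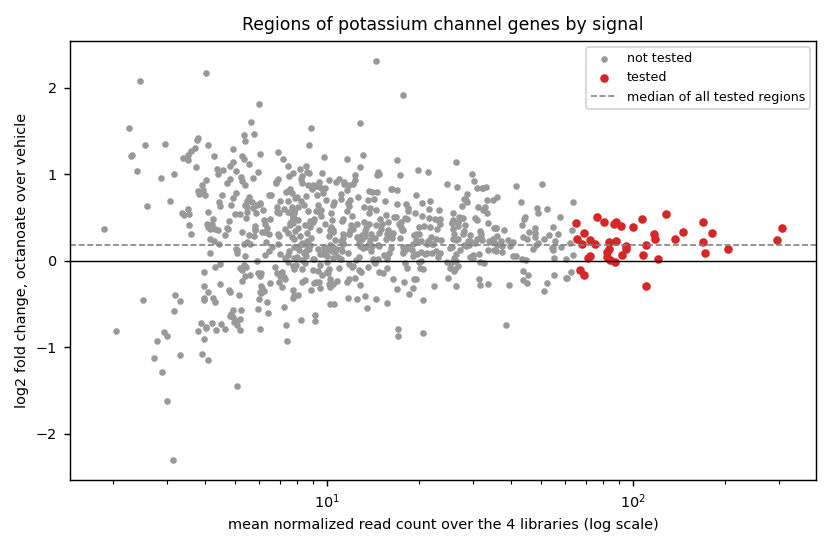
Each point is 1 of the 771 regions within 10 kb of a potassium channel gene, with its mean normalized read count over the 4 libraries on a log scale (x axis) and its deposited log2 fold change of octanoate over vehicle (y axis). The 43 tested regions (red) lie between -0.29 and 0.54, and the regions not tested (grey) spread more widely as the signal gets weaker.

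After the tested median was subtracted from each fold change, 0 of the 43 regions had an adjusted p under 0.05, against 0.0536% of all tested regions, and the lowest adjusted p was 0.955. At an unadjusted p under 0.05 after this centring, 0 were higher and 1 was lower, where 3.16% and 1.01% of all tested regions were. The 1 region lay past the end of KCNIP1, in its 10 kb flank. The 95% interval of 42 of the 43 regions held the tested median, and none reached a doubling or a halving: the highest upper bound was 0.998, at KCNN3, and the lowest lower bound -0.68, at KCNIP1, on the log2 scale. At their median standard error of 0.22, a log2 ratio of 0.43 (1.35-fold) gave an unadjusted p of 0.05, and regions with smaller errors passed at lower ratios.

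**Figure D2:**
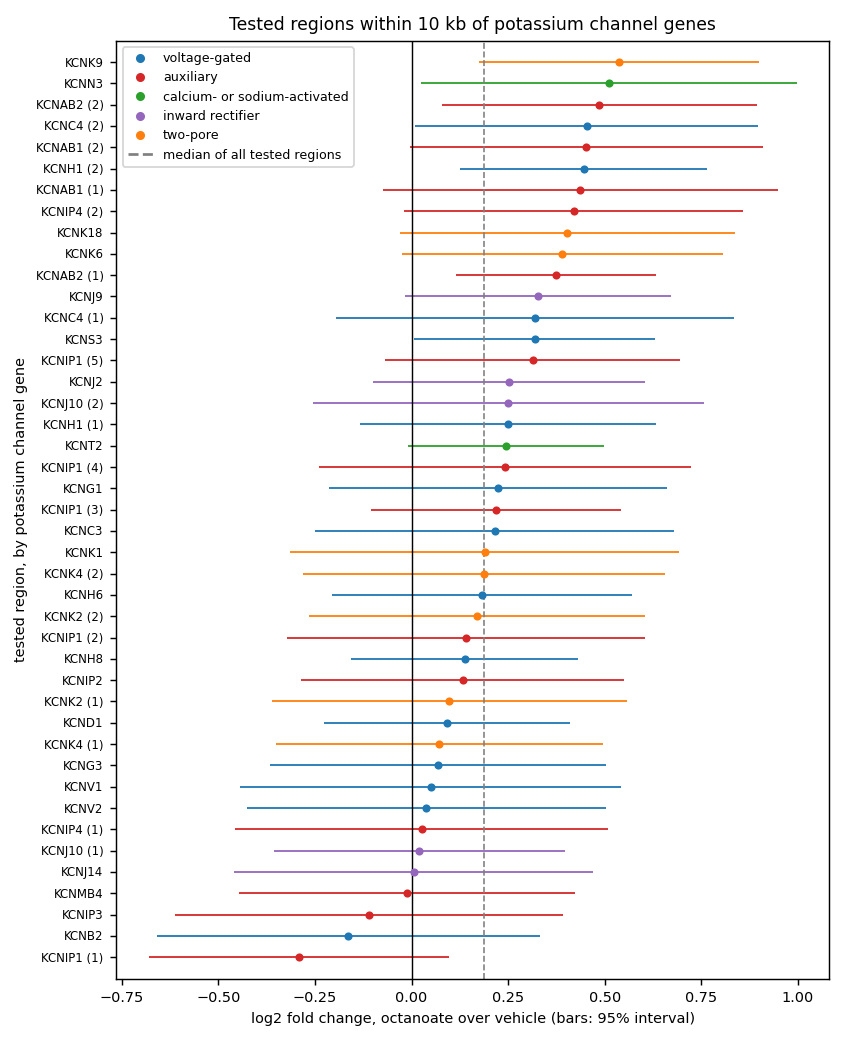
The 43 tested regions are ordered by log2 fold change of octanoate over vehicle (x axis), each named by its potassium channel gene and coloured by family, with bars for the 95% interval from the authors' standard error. Numbers in brackets count the regions of 1 gene from low to high fold change. All but 4 points lie above 0, and all but 1 interval hold the dashed line at 0.19, the median of all tested regions.

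Promoters are shown to compare the sequence of those that overlapped a listed region with that of those that did not. The RefSeq promoter table (GRCh38.p14) matched 72 of the 96 genes and listed 110 promoters of 300 bases for them. Below are the 250 bases before the start of 6 promoters, with every CG dinucleotide in capitals. The first trio belongs to genes whose start region had strong signal (KCNAB2, KCNH1 and KCNT2). The pair from KCNA2 sets an inner promoter that overlapped a listed region beside an outer one whose bases overlapped none, although a weaker region (mean 20.03 normalized reads) lay within 1 kb of that outer start, and KCNA7 is a CG-rich promoter with no listed region.
KCNAB2: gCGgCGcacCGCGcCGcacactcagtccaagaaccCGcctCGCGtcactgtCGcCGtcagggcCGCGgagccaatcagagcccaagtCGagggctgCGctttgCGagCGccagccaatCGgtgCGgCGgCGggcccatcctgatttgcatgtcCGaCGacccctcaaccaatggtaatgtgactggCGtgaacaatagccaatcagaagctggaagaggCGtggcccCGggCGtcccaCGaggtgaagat
KCNH1: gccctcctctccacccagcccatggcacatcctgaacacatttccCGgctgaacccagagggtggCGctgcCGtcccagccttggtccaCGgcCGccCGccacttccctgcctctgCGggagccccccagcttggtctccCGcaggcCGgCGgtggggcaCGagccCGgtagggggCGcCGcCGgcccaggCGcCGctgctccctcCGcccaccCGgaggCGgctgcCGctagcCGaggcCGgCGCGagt
KCNT2: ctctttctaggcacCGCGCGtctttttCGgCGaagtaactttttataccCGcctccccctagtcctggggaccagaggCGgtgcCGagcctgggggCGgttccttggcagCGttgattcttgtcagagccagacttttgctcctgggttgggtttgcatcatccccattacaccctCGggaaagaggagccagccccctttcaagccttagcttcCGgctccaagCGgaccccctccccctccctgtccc
KCNA2 inner start: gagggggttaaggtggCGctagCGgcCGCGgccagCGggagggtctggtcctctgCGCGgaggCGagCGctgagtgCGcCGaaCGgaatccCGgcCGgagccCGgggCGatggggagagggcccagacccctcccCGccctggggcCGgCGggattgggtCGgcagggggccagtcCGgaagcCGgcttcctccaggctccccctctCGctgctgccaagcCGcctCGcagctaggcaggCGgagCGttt
KCNA2 outer start: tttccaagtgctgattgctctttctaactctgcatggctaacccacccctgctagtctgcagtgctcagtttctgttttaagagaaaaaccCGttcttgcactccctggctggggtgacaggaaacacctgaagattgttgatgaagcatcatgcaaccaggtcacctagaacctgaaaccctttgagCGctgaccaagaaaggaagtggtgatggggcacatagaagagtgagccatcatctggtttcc
KCNA7: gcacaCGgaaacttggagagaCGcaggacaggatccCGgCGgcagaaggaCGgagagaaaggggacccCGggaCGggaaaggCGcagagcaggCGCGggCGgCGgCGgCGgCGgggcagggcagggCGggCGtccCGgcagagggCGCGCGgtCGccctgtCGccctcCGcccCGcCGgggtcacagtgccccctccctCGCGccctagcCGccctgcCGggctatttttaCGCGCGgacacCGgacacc

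These stretches lie on GRCh38 at chr1:5992426-5992675 (KCNAB2, plus strand), chr1:211134149-211134398 (KCNH1, minus strand), chr1:196608441-196608690 (KCNT2, minus strand), chr1:110606359-110606608 (KCNA2 inner start, minus strand), chr1:110631441-110631690 (KCNA2 outer start, minus strand) and chr19:49072700-49072949 (KCNA7, minus strand). They held 27 CG dinucleotides in KCNAB2, 25 in KCNH1, 13 in KCNT2, 27 at the KCNA2 inner start, 2 at the KCNA2 outer start and 34 in KCNA7. The capitals thus crowd the KCNA2 promoter that overlapped a region (mean 45.1 normalized reads) and are few in the one that overlapped none, while KCNA7 shows that a high CG count also occurred without a region.

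Of the 110 potassium channel promoters, 49 (44.5%) overlapped a listed region, against 66.7% of 22198 promoters of all protein-coding genes. The overlapping ones had a median of 28 CG dinucleotides in 300 bases, and the 61 others a median of 7. Over all protein-coding genes these medians were 27 and 5. Among potassium channel promoters with at least 16 CG dinucleotides, a limit chosen after the values were seen, 37 of 56 (66.1%) overlapped a region, against 89.8% of such promoters of all genes. Below that limit the shares were 22.2% (12 of 54) and 31.2%. The share was below that of all genes in both CG classes, and this difference was not tested.

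**Figure D3:**
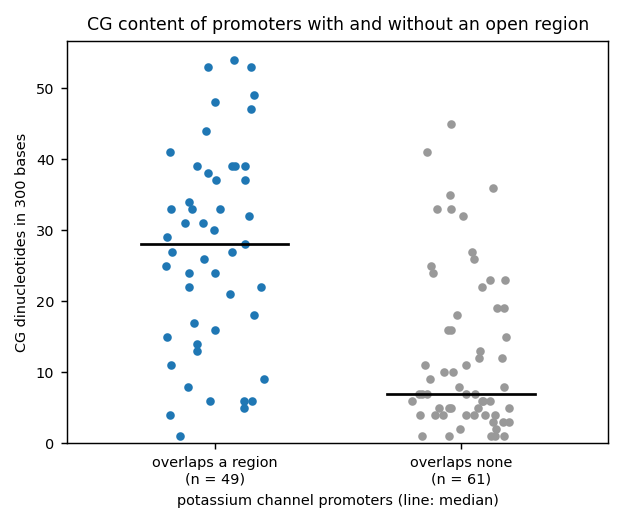
Each point is 1 of the 110 RefSeq promoters of potassium channel genes, with its number of CG dinucleotides in 300 bases (y axis), split by whether it overlapped a listed region (x axis). The 49 promoters in a region have a median of 28 and the 61 others a median of 7, with both groups spread over most of the range.

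Short motifs were counted in the same 300 bases on both strands. The GC box GGGCGG, which itself holds a CG, was in 69.4% of the 49 overlapping and 36.1% of the 61 other potassium channel promoters. Over all protein-coding genes it was in 71.4% of overlapping and 25.9% of other promoters, so the contrast is a general one. CCAAT was in 38.8% and 32.8% of the potassium channel promoters, against 35.1% and 33.9% over all genes. TATAAA was in 4.08% and 11.5%, against 5.30% and 17.8%. The AP-1 core TGAGTCA was in 4.55% of the 110, against 4.01% of all promoters, and CATGTG, a core that MITF can bind, was in 8.18% against 8.93%. Over all 110 promoters the GC box was in 50.9%, against 56.3% of all promoters, and the shares of the other 4 motifs lay within 2 percentage points of those over all genes.

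The voltage-gated family was the largest, with 40 genes and 298 regions. Their median log2 ratio was 0.31, 232 of the 298 were above 0, and of 14 tested regions 3 had an unadjusted p under 0.05, all higher, in the authors' deposited table. KCNH1, which codes for the Eag1 channel found mainly in brain and in many tumours, had a region at its start (chr1:211133337-211134744) with a mean of 169 normalized reads and implied levels of 143 in vehicle and 195 in octanoate. Its log2 ratio in the authors' deposited table was 0.45 (standard error 0.16, p 0.00652, adjusted p 0.139). A second tested region of KCNH1, 97.2 kb into the gene, had a log2 ratio of 0.25 (standard error 0.19) in the authors' deposited table. The gene's 26 regions had a median of 0.61, and 23 of them were above 0.

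KCNC4, a fast Kv3 channel, had tested regions at its start and 25.3 kb into the gene. The inner one (chr1:110234691-110236524) had implied levels of 74.2 in vehicle and 102 in octanoate, and a log2 ratio of 0.45 (standard error 0.23, p 0.0453, adjusted p 0.322) in the authors' deposited table. At the KCNC4 start the log2 ratio was 0.32 (standard error 0.26). KCNS3, a silent subunit that modifies Kv2 channels, had a strong region over its inner listed start (chr2:17878079-17879990, mean 181) with a log2 ratio of 0.32 (standard error 0.16, p 0.0463, adjusted p 0.325) in the authors' deposited table. The inner KCNC4 region and the KCNS3 region had an unadjusted p under 0.05, and neither passed after adjustment.

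The start of KCNH8, an Elk-type channel, was open over 3695 bp, with a mean of 205, and its log2 ratio of 0.14 (standard error 0.15) in the authors' deposited table lay near the median of all regions. KCND1, a Kv4 channel, had the fifth strongest region of the set (mean 171, log2 ratio 0.092), which lay at the start of its neighbour OTUD5, 13.9 kb from the KCND1 start. The remaining tested regions of the family had log2 ratios between -0.16 (KCNB2, a Kv2 delayed rectifier, standard error 0.25) and 0.22 (KCNG1, a silent subunit). KCNQ3, a subunit of the M-current channel on distal 8q, had 26 regions with a median of 0.54, of which 23 were above 0 and 0 were tested. KCND2, a Kv4 channel, also had 26 regions, with a median of 0.20, and 0 of these were tested. The regions of these long genes were many but weak.

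Auxiliary subunits numbered 17 genes, of which 15 had regions, 187 in all. Their median log2 ratio was 0.25, with 138 above 0, and 2 of 14 tested regions had an unadjusted p under 0.05 in the authors' deposited table. Both belonged to KCNAB2, a beta subunit of Kv1 channels. The region over the KCNAB2 start was the strongest of all 771 (chr1:5991203-5993721, mean 307), with implied levels of 268 in vehicle and 347 in octanoate. Its log2 ratio was 0.37 (standard error 0.13, p 0.00452, adjusted p 0.118) in the authors' deposited table. It also lay within 1 kb of the start of NPHP4, so it cannot be ascribed to 1 of the genes. The other, 23.7 kb into KCNAB2 (chr1:6015901-6016940, mean 107), had a log2 ratio of 0.49 (standard error 0.21, p 0.0196, adjusted p 0.229) in the authors' deposited table. Of the 14 regions of KCNAB2, 12 were above 0.

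KCNIP1, KCNIP2, KCNIP3 and KCNIP4 code for calcium-binding partners of Kv4 channels. KCNIP4 had the most regions of any potassium channel gene, 54 with a median of 0.18, and KCNIP1 had 44 with a median of 0.24. KCNIP1 had 5 tested regions, more than any other member. Their log2 ratios in the authors' deposited table were 0.24, 0.14, 0.22 and 0.31 within the gene. The remaining one was -0.29 (standard error 0.20, p 0.14, adjusted p 0.493), in the 10 kb flank past the gene's end (chr5:170744075-170746333). This last region had implied levels of 121 in vehicle and 99.0 in octanoate, the lowest fold change of the 43, with a p of 0.0156 and an adjusted p of 0.955 after centring on the tested median. At KCNIP4, the start region had a log2 ratio of 0.026 and a region 935 kb into the gene had 0.42 (standard errors 0.25 and 0.22) in the authors' deposited table. The 95% intervals of the 5 KCNIP1 regions all overlapped each other.

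KCNAB1, another beta subunit, had 36 regions with a median of 0.32, and its pair of tested regions had log2 ratios of 0.45 and 0.44 (p 0.0522 and 0.093) in the authors' deposited table. The family's other tested regions below 0 lay at an inner start of KCNIP3 (-0.11) and in KCNMB4 (-0.012), which codes for a beta subunit of BK channels. KCNMB2, another BK subunit, had 13 regions, all above 0, none tested, with a median of 0.50. KCNIP1 and KCNMB1, whose spans overlap, share 2 regions, and 4 regions in all were listed under a pair of potassium channel genes.

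Calcium- and sodium-activated channels had 8 genes and 136 regions, with a median log2 ratio of 0.25 and 99 regions above 0. Only 2 regions were tested. The start region of KCNN3, an SK channel opened by calcium, had a log2 ratio of 0.51 (chr1:154869424-154870654, mean 75.9, standard error 0.25, p 0.0397, adjusted p 0.308) in the authors' deposited table, with implied levels of 62.6 in vehicle and 89.2 in octanoate. KCNT2, a sodium-activated channel, had the second strongest region of the set at its start (chr1:196607905-196609734, mean 296), with implied levels of 271 and 321 and a log2 ratio of 0.24 (standard error 0.13, p 0.0596) in the authors' deposited table. The 27 regions of KCNT2 had a median of 0.032, and 14 were above 0, so that they lay on both sides of 0. KCNMA1, the pore of the BK channel, had 47 regions with a median of 0.20 and KCNN2, another SK channel, had 33 with 0.43. The strongest KCNMA1 region (mean 63.6, log2 ratio 0.68, p 0.00998) fell just short of the lowest tested mean of 63.8, and so has no adjusted p.

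**Figure D4:**
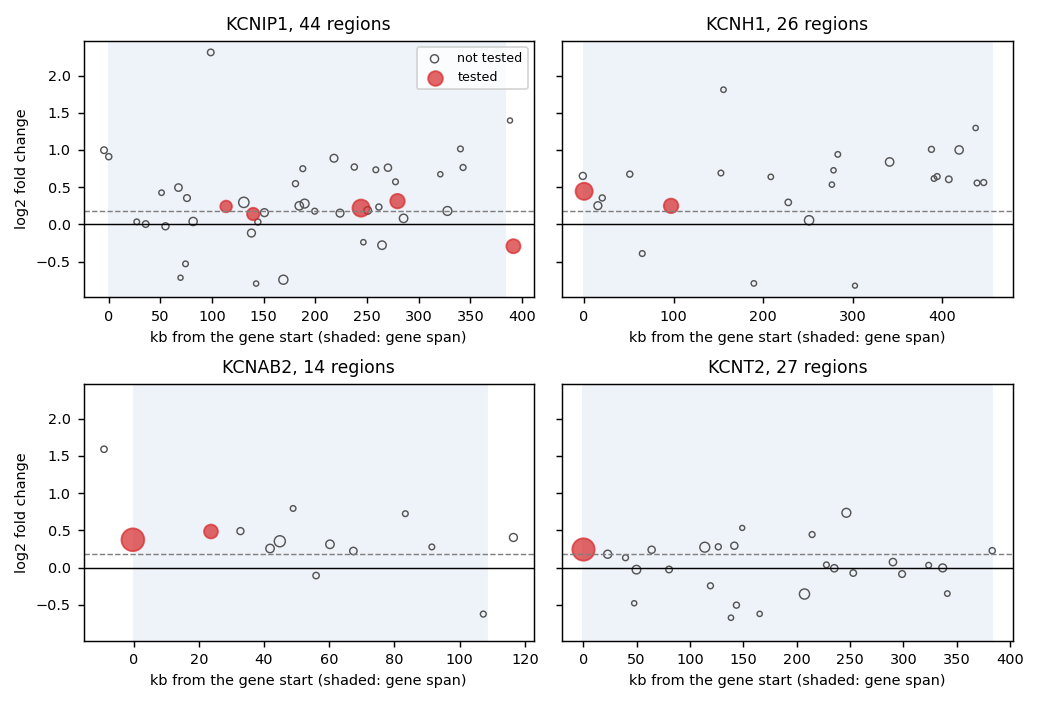
Each panel plots the regions of 1 gene by distance of the region's centre from the gene start in kb (x axis, gene span shaded) and log2 fold change of octanoate over vehicle (y axis). Point area grows with mean signal, red points were tested, and the dashed line is the tested median of 0.19. In KCNH1 23 of 26 points lie above 0, in KCNAB2 12 of 14 and in KCNT2 14 of 27, and the tested KCNIP1 region below 0 lies past the end of the gene.

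Inward rectifiers, 16 genes, had 70 regions with a median log2 ratio of 0.22 and 53 above 0. Of 5 tested regions, 0 had an unadjusted p under 0.05 in the authors' deposited table. The region at the start of KCNJ2, the classic Kir2.1 channel, had a mean of 137 and a log2 ratio of 0.25 (standard error 0.18, p 0.159) in the authors' deposited table. A region at the start of KCNJ10, the Kir4.1 channel of glia, had 0.25 (standard error 0.26). The other 3 lay at the starts of neighbours: IGSF8 beside KCNJ9 (0.33), PIGM beside KCNJ10 (0.020) and CYTH2 beside KCNJ14 (0.0051). The highest gene medians among genes with at least 5 regions included KCNJ15 (0.70, 9 regions) and KCNJ18 (0.66, 5 regions), and the lowest was that of KCNJ16 (-0.21, 5 regions). None of the regions of these genes was tested. KCNJ18 and KCNJ12 are near-identical copies, so reads from 1 may be counted at the other.

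Two-pore channels, 15 genes, had 80 regions with a median of 0.25 and 63 above 0. The lowest p of all potassium channel regions in the authors' deposited table belonged to this family. It was a region near KCNK9, the TASK-3 channel, outside the gene span on distal 8q (chr8:139705011-139706918, mean 128), with implied levels of 105 in vehicle and 152 in octanoate. Its log2 ratio was 0.54, or 1.45-fold (standard error 0.19, 95% interval 0.17 to 0.90, p 0.00379, adjusted p 0.11), in the authors' deposited table, and its p after centring was 0.059. KCNK9 had 18 regions, 15 of them above 0, with a median of 0.35. The other 7 tested regions of the family had log2 ratios from 0.072 to 0.40, and 3 of these (1 near KCNK6 and both near KCNK4, a mechanosensitive channel) lay at starts of other genes. KCNK2, the TREK-1 channel, had tested regions at an inner start (0.098) and within the gene (0.17). KCNK10, the TREK-2 channel, had 7 regions, 0 of them tested, with a median of 0.66.

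**Figure D5:**
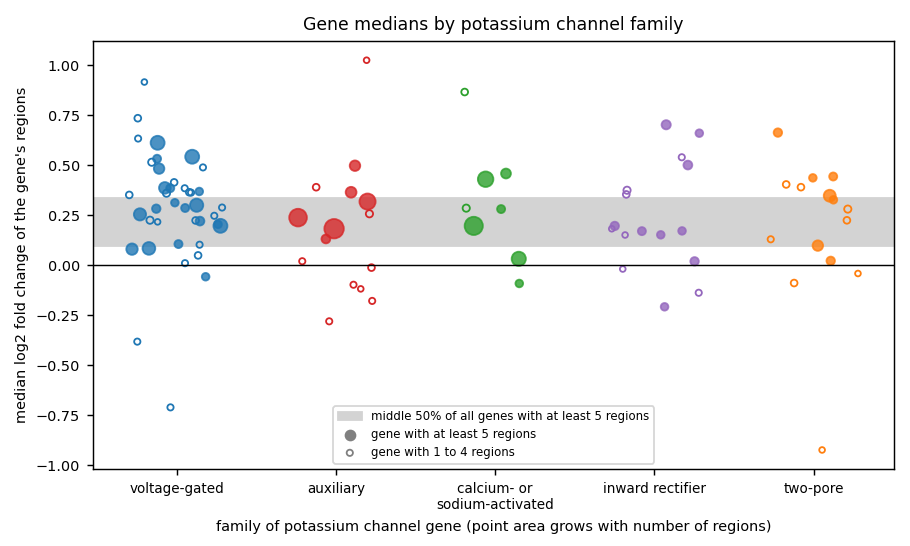
Each point is the median log2 fold change over the regions of 1 of the 94 potassium channel genes with a region (y axis), by family (x axis), with point area growing with the number of regions and open points for genes with 1 to 4 regions. The grey band from 0.094 to 0.34 holds the middle 50% of all protein-coding genes with at least 5 regions, and every family has genes inside, above and below it.

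Seen by gene, 47 of the potassium channel genes had at least 5 regions, and the median of their medians was 0.28, against 0.21 over 5731 protein-coding genes with as many. Of the 47, 18 lay above the upper quartile of all such genes (0.34) and 8 below the lower quartile (0.094). A median below 0 was found in 3 of the 47, KCNJ16, KCNU1 (-0.091) and KCNA2 (-0.057), which is 6.38%, against 11.2% of all such genes. Over genes with any region it was found in 15 of 94 potassium channel genes (15.96%), against 17.6% of 18273 protein-coding genes. KCNU1 codes for a sperm channel and KCNA2 for a Kv1 channel of axons. The 10 genes with most regions held 342 of the 771 regions (44.4%), and the number of regions went with the length of the gene (Spearman correlation 0.81 across the 96 genes, which are not independent replicates). The 47 genes had a median of 6.52 regions per 100 kb of window, against 7.12 over the 5731 genes.

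Position within the gene was compared for the genes whose strand the promoter table gives. Potassium channel regions within 1 kb of the gene start (44 regions) had a median log2 ratio of 0.19, and the 565 others had 0.28, a difference of -0.088. Over all protein-coding genes the medians were 0.14 and 0.24 and the difference -0.11. In tested regions alone the potassium channel difference was 0.066, of opposite sign, on 12 start and 24 other regions. Start regions were stronger, with a median signal of 35.3 against 10.6 normalized reads. Whether signal has a part in the difference was not tested. Of the 43 tested regions, 14 lay within 1 kb of a listed start of a potassium channel gene (13 above 0, median 0.25). A further 9 lay at the start of another gene alone (9 above 0, median 0.13), and 20 at neither (17 above 0, median 0.23). Of these 43, 7 belong to genes with no start in the promoter table.

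Position along the chromosome also varied. The 40 potassium channel regions within 5 Mb of the outermost listed gene or region of a chromosome had a median log2 ratio of 0.43, and the 731 others 0.26. Over all nuclear regions the medians were 0.33 and 0.22. Of the 40 regions 1 was tested (KCNV2, a silent subunit of cone and rod cells, 0.038). The 7 genes this close to a chromosome end had medians from -0.38 to 0.87, with 6 of them above 0. The highest was that of KCNT1, a sodium-activated channel with 3 regions. Chromosome 1 held 14 of the 43 tested regions (32.6%, against 14.6% of all tested regions), all 14 above 0, and 5 of the 7 with an unadjusted p under 0.05. These 5 are 35.7% of the 14, against 20.3% of the 1628 tested regions of chromosome 1, of which 88.0% were above 0. All tested regions of chromosome 1 had a median of 0.21 and the 14 had 0.28.

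Other genes of potassium transport were taken from a list of 35 partners: accessory proteins, HCN channels, sodium-potassium pump subunits, FXYD proteins and SLC12 cotransporters. They had 315 regions with a median log2 ratio of 0.33, and 19 tested regions with a median of 0.19. Most of the 315 came from a pair of genes. CNTNAP2 had 132 regions (median 0.25, 5 tested) and DPP6 had 53 (median 0.63, 0 tested). Of the 19 tested regions, 0 had an adjusted p under 0.05 and 3 had an unadjusted p under 0.05, all higher, in the authors' deposited table. A pair of these lay in CNTNAP2, which clusters Kv1 channels along axons, with log2 ratios of 0.75 (chr7:147510785-147511780, standard error 0.22, p 0.000565, adjusted p 0.0508) and 0.77 (standard error 0.26, p 0.00363, adjusted p 0.109) in the authors' deposited table. After centring their p-values were 0.00961 and 0.0276, and the adjusted ones 0.842 and 1. The third belonged to SLC12A7, a potassium-chloride cotransporter (0.39, standard error 0.17, p 0.0205, adjusted p 0.232). Voltage-gated calcium and sodium channel genes, 40 genes with 334 regions, had a median of 0.29 and 12 tested regions with a median of 0.19, 0 of them at an adjusted p under 0.05 and 1 at an unadjusted p under 0.05. The difference between these sets was not tested.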

How the data were processed

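ATAC-seq was done on 4 libraries, 2 with vehicle and 2 with octanoate, grouped by title. The authors deposited 1 table of DESeq2 results. Its columns, per the file headers, are the signal (read counts normalized in an unstated way and averaged over libraries), the log2 ratio of octanoate over vehicle with a standard error, a score (Wald statistic), and a p-value with its adjusted form. Per the submitters' processing notes, Trim Galore, cutadapt, FastQC, Bowtie2, Picard, MACS2, featureCounts, DESeq2 and bedtools 2.29.1 were used with hg38. Region merging and any Tn5 shift are not given in the sources used here.

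The deposited adjusted p equals Benjamini-Hochberg over 11185 regions. It is listed as 1 in the other 114801, which were treated as not tested. Region starts were counted from 1. Genes, strands and promoters came from RefSeq GRCh38.p14. Implied levels give both groups equal weight. Intervals are the fold change plus or minus 1.96 standard errors. Centred p-values are normal and two-sided, adjusted over tested regions (Python 3.11.15, scipy 1.17.1). Their calculation was run on simulated data with normal noise drawn from the deposited standard errors. That run cannot show whether those standard errors are right. The fold changes and standard errors behind these intervals rest on the authors' scaling of the libraries, which is not stated.

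The members, the 5 families and the lists were chosen with earlier results of these data known. Genes were named by unadjusted p in tested regions (at most 20 above and 10 below 0), number of regions, strongest signal, extreme medians among genes with at least 5 regions, absence of regions, and, for partners, unadjusted p under 0.05. KCNA7, KCNJ10, KCNJ12, KCNJ14, KCNK2, KCNK4, KCNMB1, KCNMB2, KCNT1 and KCNV2 fall outside this rule and were chosen after their values were seen.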

Additional observations from a re-analysis of the deposited data

How the results depend on the processing

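The count of 0 potassium channel regions past the threshold was also 0 with Benjamini-Hochberg over all regions, at an adjusted p under 0.1 or 0.01, after centring on the tested median, in the gene span alone, and without regions in the span of another gene. Within 50 kb it was 2 of 77 tested regions (2.60%, against 1.02% of all tested regions): 1 lay 21.7 kb from KCNF1 (log2 fold change 0.88, adjusted p 0.0165) and 1 lay 49.4 kb from KCNH2, within ABCB8 (0.50, adjusted p 0.0312), and after centring their adjusted p-values were 0.38 and 0.991. The median log2 fold change of 0.27 stayed between 0.22 (tested regions only) and 0.29 (without regions in the span of another gene) under the other settings, 1 of them added after seeing the data (without regions near chromosome ends, 0.26). Centred on the median of all nuclear regions it was 0.0398, since that median is subtracted. The difference between start and other regions, -0.088, was -0.088 within 2 kb, -0.084 at or above the median signal and, added later, -0.11 with every listed start. It reversed, to 0.066, in tested regions only; the cause was not tested. All other values kept their sign. No paired analysis was possible because single libraries have no values in the table, and for the same reason no replicate was left out.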

Other observations

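The 728 potassium channel regions with too little signal to be tested by the authors had a median standard error of 0.65, and their p-values carry no adjustment. At an unadjusted p under 0.05, 25 of them were higher (3.43%) and 1 was lower (0.137%) in the authors' deposited table, against 2.48% and 0.186% of all untested regions. The lowest p-values in the authors' deposited table were those of a region inside KCNIP1 (chr5:170451933-170452542, mean 14.5, log2 fold change 2.31, p 0.000143) and a region inside KCNK13, a two-pore channel of the THIK type (chr14:90111945-90112613, mean 17.7, log2 fold change 1.91, p 0.000635). The 1 lower region also lay in KCNIP1 (mean 38.5, log2 fold change -0.74, p 0.0303). These regions were chosen after their values were seen.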
